A study of Mus musculus with 5 samples.

Results

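The genes described here are 10 members of the BCL2 family, chosen by name from the 27998 genes of each count matrix. Earlier results of these data were known when they were chosen. They are 3 protective members (Bcl2, Bcl2l1 and Mcl1), 5 BH3-only members (Bcl2l11, Pmaip1, Bbc3, Bid and Bad) and 2 pore-forming members (Bax and Bak1). The Bcl2a1 paralogs, whose near-identical copies can share reads, are not among them. All 10 had UMIs in every library, and all 10 were among the 10721 genes of the authors' table of cluster means.

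The series measured messenger RNA in single mouse γδ T cells sorted for the Vγ4 or the Vγ6 receptor chain, in 5 droplet libraries with unique molecular identifiers (UMIs). C57BL/6 mice of 8 weeks gave 4 of them: Vγ4 cells of ear skin, and Vγ6 cells of ear skin, of thymus and of peripheral lymph nodes (pLN). The other library pooled Vγ6 cells of mice aged 8 to 10 weeks from 3 lines, TcrdCreER for pLN, ACT-FLPe for thymus and TcrdH2BeGFP for ear skin, with no label of the tissue of each cell. TcrdCreER and TcrdH2BeGFP carry a recombinase or a reporter at the T cell receptor δ locus, and ACT-FLPe carries a recombinase under an actin promoter, so the pooled cells came from modified mice. Collagenase digestion of the ears took 75 minutes at 37 °C, thymus was depleted of CD4 and CD8β cells with complement for 30 minutes at 37 °C, and for pLN no incubation was stated. Tissue and preparation therefore cannot be told apart. Every group had 1 library, and the number of mice behind each is not given in the sources used here, so no test between groups was possible. A level is given as CPM, a gene's UMIs per 1e+06 UMIs of the kept cells, with the 95% Poisson interval in parentheses. Ratios carry exact binomial 95% intervals. They reflect how many UMIs were counted and leave out variation among mice or preparations.

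The BCL2 family sets whether the outer mitochondrial membrane stays intact. The protective proteins hold the pore-forming proteins in check, and BH3-only proteins bind the protective proteins, or the pore formers directly, and so promote membrane permeabilization, cytochrome c release and caspase activation. In T cells, Bcl2 is known to be held up by interleukin-7 signals, Bcl2l1 and Mcl1 by activation and cytokine signals, and BIM, the product of Bcl2l11, is known for its part in the deletion of thymocytes and the contraction of T cell responses. Much of the control of these proteins is by phosphorylation, cleavage and turnover, which messenger counts do not show.

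The kept cells numbered 2517 in thymus, 2006 in the pooled library, 1458 in pLN, 1178 in skin Vγ4 and 687 in skin Vγ6, with 793463 to 6607432 UMIs per library and 596 to 5578 UMIs of members. Median UMIs per cell ran from 1059 in skin Vγ6 to 2156 in thymus. All 12 γδ T17 markers were detected in every library. Markers of other cells were present as well: dendritic markers summed to 1898 CPM in pLN, 1822 in the pool, 920 in skin Vγ6, 390 in thymus and 255 in skin Vγ4. Keratinocyte markers summed to 1475 CPM in skin Vγ4, 268 in skin Vγ6 and 66.3 to 140 in the others. Fibroblast markers were at most 1.01 CPM, and neutrophil markers reached 216 CPM in skin Vγ4 and at most 3.56 elsewhere. B cell markers were highest in pLN, at 111 CPM, and mast cell and αβ thymocyte markers were highest in thymus, at 136 and 90.5 CPM. Any 2 libraries shared 0 to 9 barcodes. Because the UMIs of a library are summed, fewer expressing cells and less RNA per cell cannot be told apart from CPM alone, so the share of cells with a UMI is added after thinning every cell to 800 UMIs. All members are widely expressed, so no cell type here should lack them and the level given by free RNA was not measured.

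Bcl2l1 and Bcl2l11 gave the largest ratios between libraries, so the sequence before a RefSeq start of each is shown, from the RefSeq promoter table on GRCm38.p6 (250 bases before to 50 bases after the start, 5′ to 3′ on the gene's strand). Capitals mark the motif match found. Bcl2l1 spans chr2:152780668-152831728 on the minus strand and Bcl2l11 chr2:128126038-128162547 on the plus strand in GENCODE (GRCm38). In Bcl2l1, at chr2:152830668-152830967, inside the annotated span and before 1 of its 3 RefSeq starts, the capitals mark an NF-kB motif whose first base lies 242 bases before the start. In Bcl2l11, at chr2:128125788-128126087, before the first of its 2 starts, they mark the FOXO motif GTAAACA, first base 227 bases before the start.
Bcl2l1: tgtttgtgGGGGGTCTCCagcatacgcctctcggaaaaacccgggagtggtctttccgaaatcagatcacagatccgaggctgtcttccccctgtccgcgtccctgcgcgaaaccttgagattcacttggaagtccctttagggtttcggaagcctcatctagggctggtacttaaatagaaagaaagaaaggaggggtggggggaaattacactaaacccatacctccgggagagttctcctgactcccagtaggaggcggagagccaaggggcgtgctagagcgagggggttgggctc
Bcl2l11: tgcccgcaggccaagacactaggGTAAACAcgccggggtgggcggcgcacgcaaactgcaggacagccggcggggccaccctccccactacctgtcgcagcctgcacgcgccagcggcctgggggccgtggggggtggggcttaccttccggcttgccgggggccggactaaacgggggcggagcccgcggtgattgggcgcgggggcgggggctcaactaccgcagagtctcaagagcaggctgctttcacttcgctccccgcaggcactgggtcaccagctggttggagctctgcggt
Windows of 9 of the 10 members, all but Pmaip1, were searched on both strands for 5 motifs. Of these 15 windows, 4 held any of the motifs. The others with a match were 2 windows of Bbc3, 1 with 2 overlapping NF-kB matches and 1 with a FOXO match. Among all 32851 windows of that length, 8.46% held the NF-kB motif, 3.65% the FOXO motif, 7.81% the AP-1 motif TGANTCA, 1.79% the CRE motif TGACGTCA and 1.51% the NR4A motif AAAGGTCA. A match is a description of the letters, and counts from transcript 3′ ends do not tell which start was used.

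Among the protective members, Bcl2l1 differed most between tissues. Bcl2l1 encodes BCL-XL, which guards mitochondria in activated T cells. Its level was 142 CPM (117 to 171) in skin Vγ6, 85.3 (72.8 to 99.4) in skin Vγ4, 88.1 (77.8 to 99.5) in the pool, 13.3 (10.0 to 17.3) in pLN and 6.66 (4.84 to 8.94) in thymus. Both skin libraries lay far above pLN and thymus, and the intervals of the 2 lower libraries did not overlap either. At 800 UMIs per cell, 11.2% of skin Vγ6 cells had a Bcl2l1 UMI, against 5.88% in skin Vγ4, 7.07% in the pool, 1.44% in pLN and 0.399% in thymus. The difference was thus seen in the share of cells with the transcript as well as in the summed level.

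Bcl2, the protective gene that interleukin-7 is known to maintain in resting lymphocytes, had another order. It was highest in thymus at 71.4 CPM (65.1 to 78.2), then 56.7 (48.5 to 66.0) in the pool, 41.9 (33.3 to 52.1) in skin Vγ4, 36.5 (24.5 to 52.5) in skin Vγ6 and 20.9 (16.8 to 25.7) in pLN. The 2 skin libraries were not separated by their counting interval. The library with the least Bcl2l1, thymus, was therefore the one with the most Bcl2. In summed CPM the pLN library was low in both. After thinning, 2.61% of pLN cells (1.85% to 3.56%) had a Bcl2 UMI. The share was 3.02% in skin Vγ6 (1.77% to 4.80%) and 2.90% in skin Vγ4 (2.00% to 4.04%). Thymus stayed highest at 5.42% (4.57% to 6.38%), and the pool had 3.74% (2.89% to 4.76%). The thinned intervals of pLN and the skin libraries overlap, so this share does not place pLN below skin.

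Mcl1, a short-lived protective protein, ran from 95.9 to 135 CPM in 4 libraries and was lower in pLN. It stood at 135 CPM (111 to 163) in skin Vγ6, 111 (103 to 119) in thymus, 107 (93.0 to 123) in skin Vγ4, 95.9 (85.1 to 108) in the pool and 47.3 (40.9 to 54.3) in pLN. No neighbours among the upper 4 were separated by their counting interval, but the intervals of skin Vγ6 and the pool do not overlap. The pLN library was separated from the pool by 2.03-fold (1.69 to 2.45).

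Among the BH3-only members, Bcl2l11 had by far the widest range. Its product BIM can bind every protective member. The level was 304 CPM (291 to 318) in thymus, 275 (252 to 299) in skin Vγ4, 111 (89.0 to 137) in skin Vγ6, 37.8 (31.1 to 45.5) in the pool and 15.2 (11.7 to 19.4) in pLN. All 4 pairs of neighbours in this order were separated by their counting interval, the closest being thymus over skin Vγ4 at 1.11-fold (1.01 to 1.22). Thinned to 800 UMIs, 21.8% of thymus cells (20.2% to 23.5%) and 18.0% of skin Vγ4 cells (15.8% to 20.4%) had a Bcl2l11 UMI, but 1.51% of pLN cells (0.948% to 2.28%).

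Pmaip1 and Bbc3 encode NOXA and PUMA, BH3-only proteins known as p53 targets. Pmaip1 was 41.6 CPM (28.6 to 58.4) in skin Vγ6, 35.5 in the pool, 26.4 in skin Vγ4, 22.2 in thymus and 14.7 (11.3 to 18.9) in pLN. Only the step from thymus to pLN was separated, at 1.51-fold (1.12 to 2.07). Bbc3 was 20.2 CPM in skin Vγ6, 17.9 in the pool, 17.3 in thymus, 14.5 in pLN and 10.9 in skin Vγ4, from 16 to 114 UMIs per library. No neighbours in the order of Bbc3 were separated by counting error.

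Bid and Bad ran the other way, with pLN highest. Bid, which links death receptors to mitochondria once caspase-8 cleaves it, was 35.1 CPM (29.7 to 41.3) in pLN, 16.5 in the pool, 9.08 in thymus, 3.78 in skin Vγ6 and 3.62 in skin Vγ4. The skin values rest on 3 and 7 UMIs, and the 2 skin libraries were not separated. Bad, a BH3-only protein silenced by growth factor phosphorylation, was 71.5 CPM (63.6 to 80.0) in pLN, 51.0 in the pool, 29.4 in thymus, 21.4 in skin Vγ6 and 20.2 in skin Vγ4. For both genes pLN and pool were separated from each other and from the 3 other libraries, while skin Vγ6 was not separated from thymus.

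The pore formers shared that order but varied less. Bax was 338 CPM (321 to 356) in pLN, 312 (292 to 333) in the pool, 239 (228 to 251) in thymus, 219 (188 to 254) in skin Vγ6 and 169 (151 to 189) in skin Vγ4. Bax was the most counted member in pLN, skin Vγ6 and the pool, while Bcl2l11 was the most counted in skin Vγ4 and thymus. Bak1 was 45.4 CPM (39.2 to 52.3) in pLN, 34.8 in the pool, 33.4 in thymus, 20.2 in skin Vγ6 and 13.4 in skin Vγ4. Bax was in 24.6% of thinned pLN cells and 13.1% of thinned skin Vγ4 cells, and Bak1 in 3.02% and 1.23%.

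**Figure D1:**
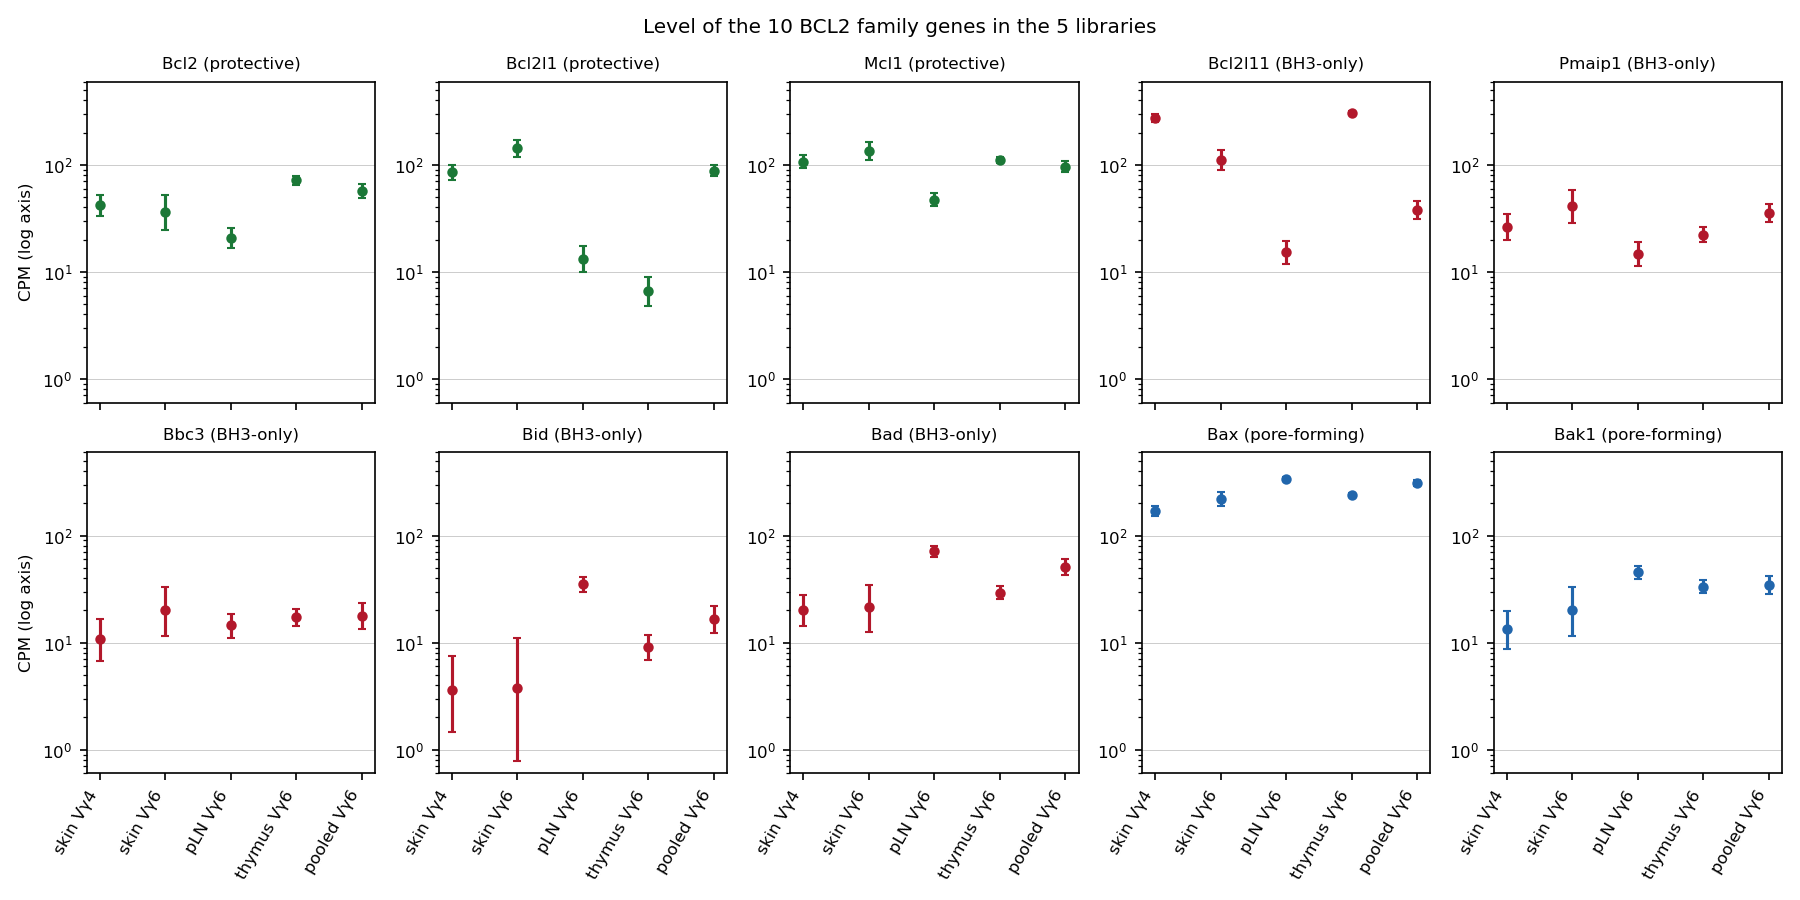
Level of each member in CPM (log axis) in the 5 libraries; points are 1 library each and bars are 95% Poisson intervals. Bcl2l1 (6.66 to 142 CPM) and Bcl2l11 (15.2 to 304 CPM) span the widest ranges, and Bid, Bad, Bax and Bak1 are all highest in pLN.

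The comparison of skin Vγ6 with pLN Vγ6 asks how cells of 1 receptor type differ between a barrier tissue and lymph nodes. Protective members were called only higher in skin, while death-promoting members were called in both directions. A gene is called higher or lower where the ratio is at least 2-fold, its interval excludes 1 and the higher library has at least 20 CPM. Of the 10 members, 4 were called higher in skin, against 16.0% of the 5770 genes measured, and 3 were called lower, against 30.4%. The 4 were Bcl2l1 at 10.7-fold (7.71 to 15.0), Bcl2l11 at 7.30-fold (5.23 to 10.2), Mcl1 at 2.85-fold (2.23 to 3.63) and Pmaip1 at 2.82-fold (1.79 to 4.38). Bid was 9.30-fold lower (3.12 to 45.6), Bad 3.34-fold lower (2.05 to 5.80) and Bak1 2.25-fold lower (1.35 to 4.02). The ratio of Bax was 0.648 (0.551 to 0.759), which did not reach 2-fold. The median log2 ratio was 1.49 for the 3 protective members, -0.62 for the 7 death-promoting members and -0.38 for all genes measured. The Bak1 call did not hold across settings: it ended under TMM (log2 ratio -0.92) and median-of-ratios scaling (-0.89) and under most cell filters. The Bcl2 ratio of 1.75 (1.11 to 2.69) was called under those scalings, at log2 values of 1.06 and 1.08, which made 5 higher and 2 lower, but was -0.58 when cells with dividing markers were left out.

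Thymus Vγ6 and pLN Vγ6 differed most in Bcl2l11, and the other calls went in both directions. This comparison shares the pLN library with the one before. Bcl2l11 was 20.02-fold higher in thymus (15.6 to 26.1), Bcl2 3.42-fold (2.72 to 4.34) and Mcl1 2.35-fold (2.01 to 2.76), while Bid was 3.87-fold lower (2.85 to 5.32) and Bad 2.43-fold lower (2.03 to 2.93). These are 3 higher and 2 lower of 8 members measured, beside 11.8% and 11.3% of 5703 genes. Bcl2l1, at 0.501 (0.330 to 0.757), and Bbc3 were below 20 CPM in both libraries. Without cells with dividing markers the log2 ratio of Bcl2 fell to 0.56, and its call ended. The call of Mcl1 ended, at a log2 ratio of 0.99, when cells with 2 or more UMIs of other cell types' markers were left out, which left 446 of 1458 pLN cells.

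Between skin Vγ6 and thymus Vγ6, 2 of 9 members measured were called. Bcl2l1 was 21.4-fold higher in skin (15.0 to 31.0) and Bcl2l11 was 2.74-fold lower (2.22 to 3.44). Of 5656 genes, 13.7% were higher and 24.5% lower. With so few members, 1 call in each direction is near those shares. The ratio of Bcl2 was 0.512 (0.339 to 0.745) and that of Pmaip1 1.87 (1.24 to 2.74), both just short of 2-fold, and Bcl2 was called with dividing cells left out, at a log2 ratio of -1.14. Mcl1 at 1.21 (0.982 to 1.49) and Bax at 0.916 (0.779 to 1.07) had intervals that include 1. Among cells with a Cd163l1 UMI, a gene of Vγ6 cells, the call of Bcl2l11 ended, at a log2 ratio of -0.93.

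Between the 2 receptor types in skin, 1 of 9 members measured was called. Bcl2l11 was 2.48-fold higher in skin Vγ4 than in skin Vγ6 (1.97 to 3.14). Of all 4973 genes measured, 4.26% were higher and 3.18% lower. With so few members, a count of 1 lies near that background. Bcl2l1 had a ratio of 0.599 (0.469 to 0.768) and Bax of 0.771 (0.640 to 0.933). The intervals of Bcl2, Mcl1, Pmaip1, Bbc3, Bid, Bad and Bak1 all include 1.

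**Figure D2:**
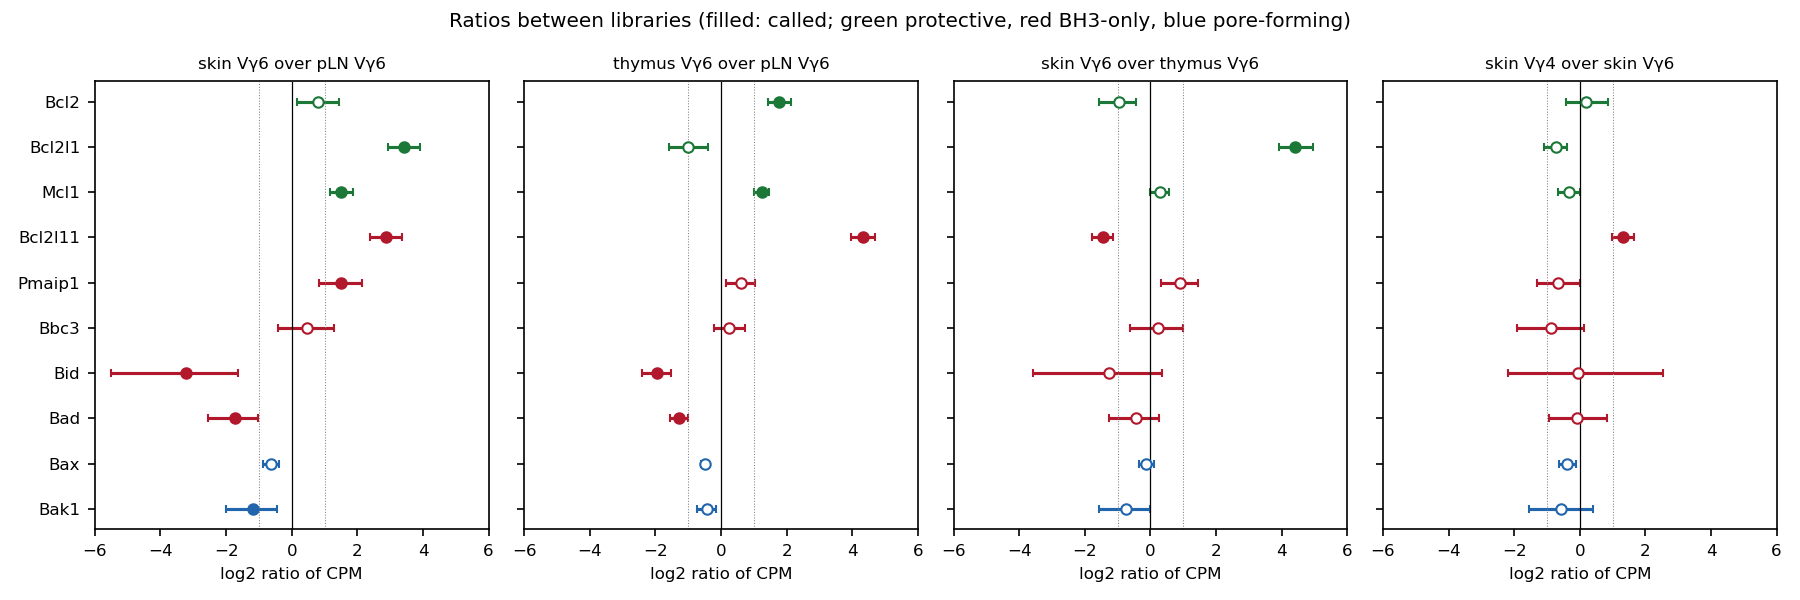
Log2 ratio of CPM for each member in the 4 comparisons of 1 library with another; bars are exact binomial 95% intervals, filled points are called, and dotted lines mark 2-fold. Bcl2l1 and Bcl2l11 are the only members called in the comparison of skin Vγ6 with thymus Vγ6, in opposite directions.

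The immediate early gene Fos, the heat shock gene Hspa1a and the receptor-signal gene Nr4a1 also differed between these libraries. All 3 were lowest in pLN and highest in skin, an order that only some members shared. Fos was 299 CPM in skin Vγ6, 411 in skin Vγ4, 131 in thymus and 45.4 in pLN, and Hspa1a was 848, 713, 533 and 27.8. Nr4a1 was 464, 549, 43.9 and 1.43 CPM in the same order. These genes are known to respond to warm tissue preparation as well as to signals in the tissue, and their part in the member ratios was not tested. The pool, which mixes 3 tissues, had 354 CPM of Fos, 282 of Hspa1a and 414 of Nr4a1.

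Summed over roles, the libraries differed in makeup more than in total. The 10 members together held 751 CPM in skin Vγ6, 753 in skin Vγ4, 616 in pLN, 844 in thymus and 746 in the pool. Protective members made up 41.8% of member UMIs in skin Vγ6 (37.8% to 45.9%), 31.1% in skin Vγ4 (28.8% to 33.6%), 32.3% in the pool (30.3% to 34.3%), 22.4% in thymus (21.3% to 23.5%) and 13.2% in pLN (11.9% to 14.6%). No interval of skin Vγ6, thymus or pLN overlaps that of another library. BH3-only members summed to 382 CPM in thymus, 336 in skin Vγ4, 198 in skin Vγ6, 159 in the pool and 151 in pLN. Pore formers summed to 384 CPM in pLN, 347 in the pool, 273 in thymus, 239 in skin Vγ6 and 183 in skin Vγ4. A sum weights each gene by its own capture at the 3′ end, so the share compares libraries and is no measure of protein balance.

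**Figure D3:**
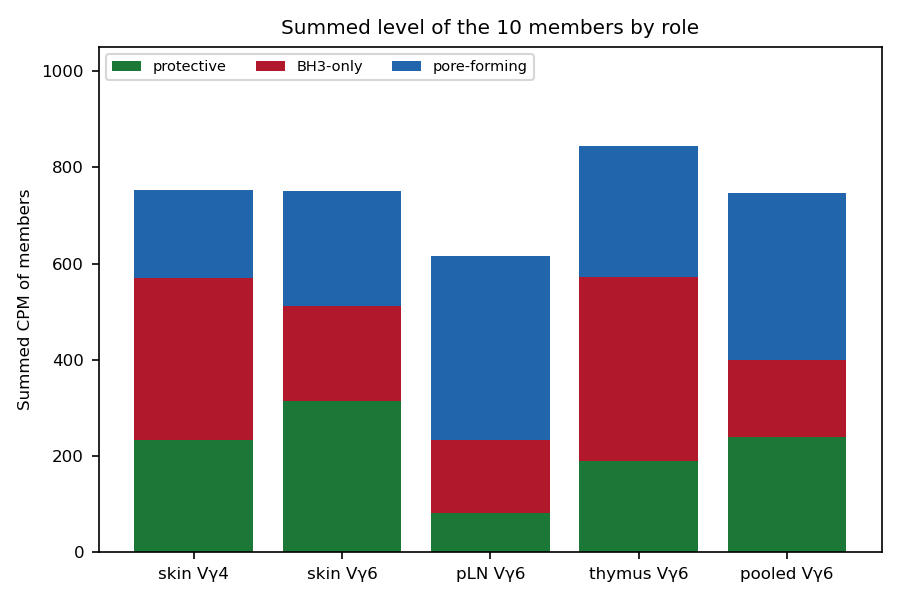
Summed CPM of the 10 members by role, 1 bar per library, with protective members at the bottom, BH3-only in the middle and pore-forming on top. The protective part ranges from 81.5 CPM in pLN to 314 CPM in skin Vγ6, and the BH3-only part is largest in thymus at 382 CPM.

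The authors' table of mean expression gives 8 Vγ6 clusters, named for skin, pLN or thymus, with values in parts per 10000. These are the authors' means, without an error. The thymus clusters fell into different groups by gene. Bcl2l11 was 5.02 in Thy_5, 4.45 in Thy_4 and 4.00 in Thy_1, but 1.36 in Thy_3 and 1.17 in Thy_2, and in the pLN clusters it was 0.227 and 0.213. Bcl2 was 1.22 in Thy_4 and 1.20 in Thy_1, against 0.343 in Thy_5, 0.155 in Thy_3 and 0.130 in Thy_2. Thy_1 and Thy_4 thus held both the high Bcl2 and a high Bcl2l11, while Thy_5 held high Bcl2l11 with little Bcl2. For orientation, the table gives the cytotoxic gene Gzma its highest values in Thy_5 (24.8) and Thy_1 (8.22), and Cd163l1 11.0 in Thy_2. Thy_4 had little of either, with Gzma at 1.99 and Cd163l1 at 0.727, and so had Thy_3, at 0.681 and 0.319.

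Bcl2l1 was 1.56 in the Skin cluster and 0.0376 to 0.187 in the other 7, so no pLN or thymus cluster came near it. Mcl1 was highest in Thy_1 (1.57) and Skin (1.28) and lowest in pLN_2 (0.448). The pLN clusters differed in Bcl2, with 0.420 in pLN_1 and 0.0300 in pLN_2, and in Bbc3, with 0.299 and 0.0453. The proliferation gene Mki67 was highest in pLN_2, at 3.16. Bad was 0.809 in pLN_1 and 0.705 in pLN_2, and 0.217 to 0.443 in the other 6. Bid was 0.340 in Thy_4, 0.311 in pLN_1 and 0.283 in pLN_2, and at most 0.0771 elsewhere. The mean of 1 thymus cluster was thus at the level of the pLN clusters. The authors' cluster markers list Bid for 5 clusters, and Thy_4 is not among them. Bax ran from 1.31 in Thy_5 to 3.87 in pLN_1, and Bak1 from 0.177 in Skin to 0.533 in pLN_2. Protective members made up 43.8% of the members' sum in Skin and 11.0% in pLN_2.

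The authors' deposited table of cluster markers lists 39 entries for members, 16 higher and 23 lower in a cluster than in other cells, or 41.0% higher against 52.4% of the table's 26092 entries. In the authors' deposited table the adjusted p of 23 of these 39 is below 0.05, where 44.7% of all its entries are. The other listed differences of members, that of Bcl2 in Thy_4 among them, did not pass the authors' own adjustment. In the authors' deposited table, 68.2% of Thy_5 cells, 48.6% of Thy_1 cells and 47.1% of Thy_4 cells had Bcl2l11, against 19.7% of Thy_2, 11.4% of Skin, 4.70% of pLN_2 and 3.20% of pLN_1 cells. The authors' deposited table gives Bcl2l1 in 16.9% of Skin cells and 1.20% of Thy_1 cells, and Bcl2 in 20.7% of Thy_1, 20.3% of Thy_4 and 1.30% of pLN_2 cells. Bcl2 and Bcl2l11 are listed there for 7 clusters each and Bbc3 for none. Its p-values were made over cells and are not printed.

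**Figure D4:**
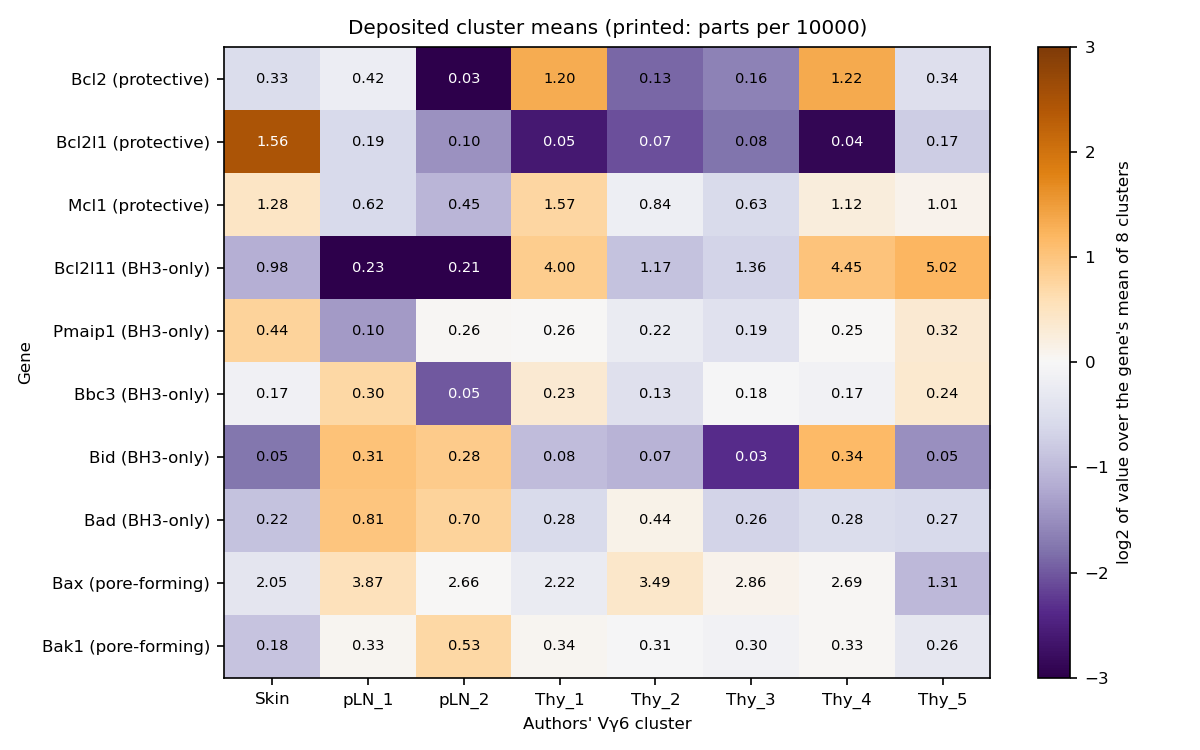
The authors' cluster means of each member (printed numbers, parts per 10000) in 8 Vγ6 clusters, coloured by the log2 value over the gene's own mean of the clusters. Bcl2l1 stands out in Skin (1.56), Bcl2l11 in Thy_1, Thy_4 and Thy_5 (4.00 to 5.02) and Bcl2 in Thy_1 and Thy_4.

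By Pearson's r of log values over the 8 cluster means, taken across 4108 genes as a description, the genes most like Bcl2l11 were Abcb9 (0.978), Plekha2 (0.971) and Dcaf12 (0.970). Among those most like Bcl2l1 were Exosc2 (0.952) and Gm4950 (0.940). For Bcl2 these were Git2 (0.951), 0610012G03Rik (0.915) and Ensa (0.908), and for Mcl1 they were Chd2 (0.976), Map3k1 (0.961) and Fbxo33 (0.941). The clusters come from shared libraries, and 58 genes reached 0.9 with Bcl2l11, against 6 with Bcl2, 9 with Bcl2l1 and 6 with Mcl1.

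Within the thymus library, cells were split by UMIs of Gzma and Cd163l1. Cells with a Gzma UMI and no Cd163l1 UMI (618 cells) had 376 CPM of Bcl2l11, and cells with Cd163l1 and no Gzma (564 cells) had 196, a ratio of 1.92 (1.66 to 2.22). Bax ran against it, at 190 and 307 CPM and a ratio of 0.619 (0.536 to 0.715). Both Bcl2l11 levels were more than 10 times the pLN level. The ratio of Bcl2 was 1.38 (1.01 to 1.90) and turned to a log2 value of -0.0069 after thinning, so no direction is given.

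Dividing cells made up 724 of 1458 kept pLN cells by a gate of at least 2 UMIs of dividing markers. Bcl2 was 9.02 CPM in them and 50.2 CPM in the 734 other cells, a ratio of 0.180 (0.110 to 0.287), which was 0.317 (0.139 to 0.661) after thinning to 800 UMIs. Bbc3 had a ratio of 0.302 (0.174 to 0.516), and 0.193 (0.0482 to 0.572) after thinning. The ratio of Bcl2l11 was 0.460 (0.273 to 0.778), and 0.541 (0.199 to 1.36) after thinning, and Bax was nearer to even at 0.811. The dividing cells were deeper, with a median of 2958 UMIs against 1457.5. In thymus, 633 of 2517 cells passed the gate, and the ratio of Bcl2 there was 0.912. With dividing cells left out of both libraries, Bcl2 was still higher in thymus than in pLN, at a log2 ratio of 0.56 (0.16 to 0.98).

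In the skin Vγ4 library, Bcl2l1 went with the IL-17 genes cell by cell. The 858 cells with an Il17a or Il17f UMI had 102 CPM of Bcl2l1 and the 320 others 34.1, a ratio of 2.98 (1.78 to 5.35). In skin Vγ6 the ratio was 1.09 (0.723 to 1.63), and the difference between the libraries was not tested. With cells bearing other cell types' markers left out, the ratio in skin Vγ4 was 3.30 (1.77 to 6.81). Cells with a UMI of a receptor-signal gene (Nr4a1, Nr4a3, Egr1, Egr2 or Egr3) had a Bcl2l1 ratio of 2.31 (1.49 to 3.72) in skin Vγ4. It was 1.65 (1.27 to 2.14) in the pool and 1.07 (0.726 to 1.59) in skin Vγ6, where the intervals of the skin libraries overlap. In thymus it was 1.12 (0.550 to 2.18) and in pLN 1.04 (0.208 to 3.22), with intervals that include 1. Among skin Vγ4 cells with such a UMI the ratio by IL-17 genes was 2.78 (1.54 to 5.52), and among those without, it was 2.54 (0.850 to 10.2) from 24 UMIs. In the pool the ratio was 2.53 (1.94 to 3.28), but 48.1% of the pool's IL-17 cells fitted the skin library best. Within pooled cells fitting skin it was 1.75 (1.31 to 2.34), and within those fitting pLN or thymus 0.95 (0.39 to 2.01).

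Bcl2 and Bcl2l11 were also read in the same cells after thinning. In thymus, 31.6% of the 136 cells with a Bcl2 UMI had a Bcl2l11 UMI (23.9% to 40.1%), against 21.3% of the others (19.6% to 23.0%). Doublets were not removed and free RNA was not measured, so a barcode with both transcripts need not be 1 cell that makes both. In skin Vγ4, 1 of 33 cells with Bcl2 had Bcl2l11, or 3.03%, against 18.4% of the others. The other libraries had few such cells: 3 of 17 in skin Vγ6 (17.6% against 9.17%), 1 of 63 in the pool (1.59% against 3.02%) and 0 of 38 in pLN, with an exact upper limit of 9.25%.

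The pooled library gives a second set of Vγ6 cells from the same tissues, run together. Each pooled cell was assigned to the skin, pLN or thymus library that fitted it best over 5963 genes, with the members and the wider apoptosis genes left out of the fit. That gave 645 cells fitting skin, 573 fitting pLN and 788 fitting thymus. Held-out cells of the 3 libraries were assigned to their own library in 98.2% to 99.4% of cases. A fit is no label of tissue, and the pool's mice carried other alleles.

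Among pooled cells, those fitting skin differed from those fitting pLN in the members named for the separate libraries, and Bcl2l1 was 262 against 31.9 CPM, or 8.21-fold higher (5.55 to 12.6). Pmaip1 was 3.94-fold higher (2.08 to 7.98), Bcl2l11 3.37-fold (1.70 to 7.16) and Mcl1 2.72-fold (1.97 to 3.80). Bid was 13.4-fold lower from 2 UMIs, Bak1 9.45-fold lower from 4 UMIs and Bad 3.36-fold lower. These are 4 higher and 3 lower of 10, beside 12.8% and 21.5% of all genes measured. Bcl2 had a ratio of 0.80 (0.50 to 1.27).

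Pooled cells fitting thymus, set against those fitting pLN, had 3.88-fold more Bcl2l11 (2.08 to 7.88) and 2.66-fold more Pmaip1 (1.42 to 5.34), and less Bid (3.03-fold), Bad (2.22-fold) and Bbc3 (2.09-fold). All genes were called higher at 6.75% and lower at 6.31%. Bcl2, at 1.24 (0.862 to 1.80), and Mcl1, at 1.26 (0.899 to 1.78), were not called, unlike in the separate libraries, and the difference was not tested. Of pooled cells fitting skin against those fitting thymus, Bcl2l1 was 10.6-fold higher (7.24 to 15.8), Mcl1 2.16-fold higher (1.65 to 2.84) and Bak1 7.99-fold lower, beside 10.7% of genes higher and 16.0% lower. The Bcl2l11 ratio was 0.870 (0.558 to 1.34).

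The Bcl2l11 level itself differed between the separate libraries and the pool. The thymus library had 304 CPM and the pooled cells fitting thymus 51.2, a 5.94-fold higher value in the library (4.65 to 7.72), where 4.53% of genes were higher and 9.26% lower. The skin Vγ6 library had 111 CPM and its pooled counterpart 44.6, 2.49-fold higher (1.66 to 3.82), beside 3.70% of genes higher and 9.44% lower. Bak1 was also higher in that library, 20.2 against 5.24 CPM or 3.85-fold (1.24 to 15.8), and the pooled Bak1 ratios above rest on that low value from 4 UMIs. In pLN the 2 values were 15.2 and 13.2 CPM, with a ratio of 1.15 (0.616 to 2.34). Bcl2l1 was lower in the thymus library than in its counterpart by 3.73-fold (2.29 to 6.01) and in pLN by 2.40-fold (1.48 to 3.82). In skin Vγ6 it was lower by 1.84-fold (1.45 to 2.34), short of a call. Bcl2 was lower in pLN by 2.58-fold (1.78 to 3.70), beside 5.84% of genes higher and 9.88% lower there. Strain, preparation, run and fit differ together in this comparison and cannot be told apart.

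**Figure D5:**
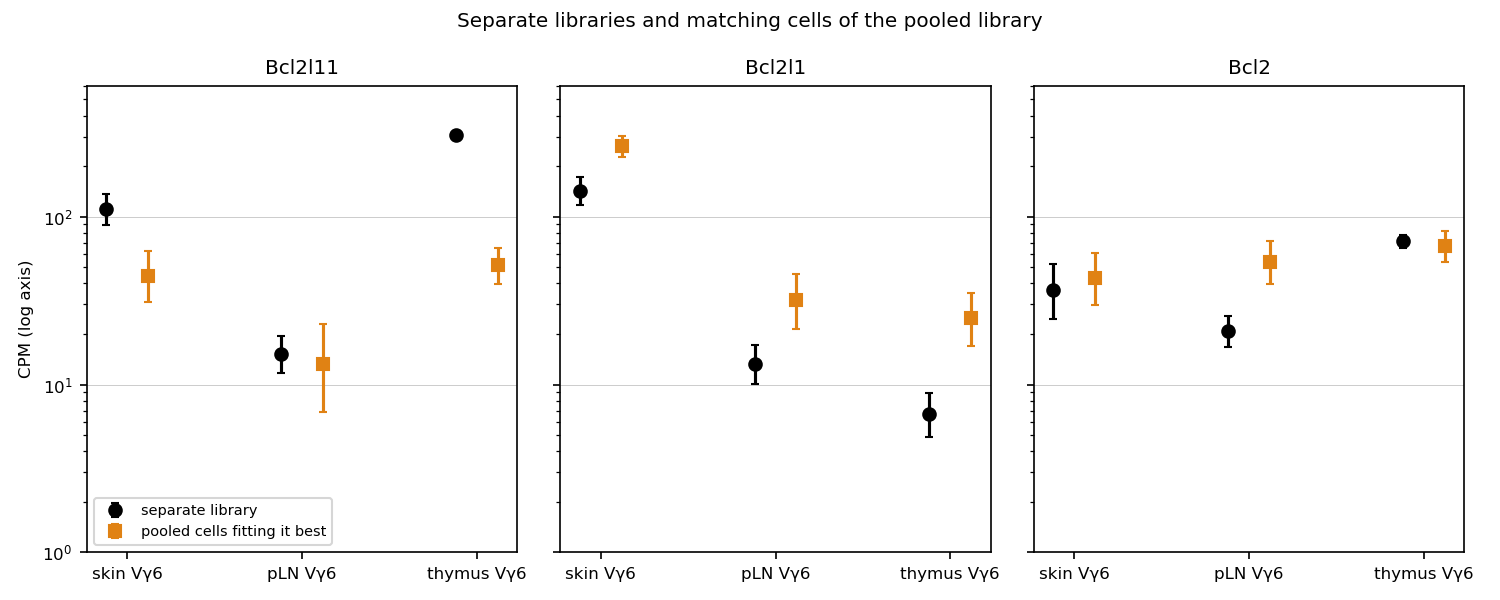
CPM (log axis) of 3 members in the separate Vγ6 libraries (circles) and in the pooled cells that fit each library best (squares), with 95% Poisson intervals. Bcl2l11 is 304 CPM in the thymus library and 51.2 CPM in the pooled cells fitting it, while Bcl2l1 is highest in skin in both sets.

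Other genes of apoptosis were taken from a list of 52 genes in 4 groups. The list, too, was chosen with earlier results of these data known, so its counts are a description. In skin Vγ6 over pLN, 15 of 32 measured genes were higher and 7 lower, where all genes gave 16.0% and 30.4%. The upstream regulators had 10 higher and none lower of 15 measured, among them Rel, an NF-kB subunit, at 51.7-fold (40.7 to 66.5) and Cdkn1a, a p53 target that arrests the cell cycle, at 31.3-fold (22.7 to 43.9). Fas, the death receptor, was 43.3-fold higher (30.6 to 63.1), with 371 CPM against 8.55. Of 9 caspase pathway genes measured, 2 were higher and 4 lower, which with so few genes is near the shares over all genes. Casp8, the initiator caspase of death receptors, was 3.98-fold lower. Birc5, a survival and mitosis gene, was 12.4-fold lower, beside dividing markers that summed to 313 CPM there against 2839 in pLN.

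In thymus over pLN, 12 of 33 measured apoptosis genes were higher and 2 lower, beside 11.8% and 11.3% of all genes, with Cdkn1a at 8.78-fold (6.48 to 12.2) and Fas at 6.14-fold (4.35 to 8.92). Stat5a, a mediator of interleukin-7 signals, was 5.76-fold higher (3.92 to 8.77). Il7r, the interleukin-7 receptor, went the other way with a ratio of 0.526 (0.495 to 0.559), short of a call, and the BH3-only gene Bik was 4.03-fold lower. In skin Vγ6 over thymus, 10 of 32 were higher and 6 lower, beside 13.7% and 24.5%, with Rel at 14.4-fold (12.7 to 16.3), Nfkb1, another NF-kB subunit, at 7.47-fold (6.69 to 8.34) and Stat5b at 5.32-fold lower. In skin Vγ4 over skin Vγ6, none of 28 measured genes were called in either direction, where 4.26% and 3.18% of all genes were, so a count of 0 lies near the background.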

How the data were processed

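The 5 deposited matrices hold raw UMI counts per gene and cell barcode. Per the submitters' processing notes, Cell Ranger 2.0, Seurat 2.3 and the mm10 build were used, with no role given. The authors also deposited mean expression of 8 Vγ6 clusters in another unit, parts per 10000, and a marker table with p-values over cells, natural log fold changes and the fraction of cells with a UMI. How the clusters were made is not given in the sources used here.

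Barcodes with at least 200 genes and at most 10% mitochondrial UMIs were kept. Doublets and other cell types were not removed. Each library was then summed and scaled to CPM. Intervals are exact 95% Poisson (levels), conditional binomial (ratios) and Clopper-Pearson (shares), and cover counting error only. With 1 library per group no test was made, and calls follow the fold, interval and CPM rule in the text. Scripts ran in Python 3.11.15 with numpy 2.4.6, scipy 1.17.1 and pandas 2.3.3, were tested on simulated data, and took TMM factors from edgeR 4.0.16. Gene positions and promoters came from GENCODE and RefSeq tables. Gates were sets of cells defined by UMIs of marker genes, and pooled cells were assigned by multinomial likelihood. Genes named beside the members were the 3 most alike per member and the most changed of the apoptosis genes in each comparison, some of which are not reported here. The members and lists were chosen with earlier results of these data known. The Cd163l1 gate, the limit at 3 times the median UMIs and the further splits of the IL-17 gate were chosen after seeing the data. Other alternatives were scaling, cell filters, thinning, fold and CPM limits.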

Additional observations from a re-analysis of the deposited data

How the results depend on the processing

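No paired analysis was possible because each group has 1 library, so no library could be left out either. Of 389 member ratios recomputed under the alternatives, 367 kept their direction and 22 changed it, none of the 22 for a member called in that comparison. A call was gained in 16 and lost in 13. The number of members called in skin Vγ6 over pLN went from 7 to 4 with at least 500 genes and at most 5% mitochondrial UMIs, where Pmaip1, Bid and Bak1 were lost and 142 skin Vγ6 cells were left. In skin Vγ6 over thymus it went from 2 to 4 with means over cells and to 4 with a 1.5-fold limit, where Bcl2 and Pmaip1 were added. In skin Vγ4 over skin Vγ6 it went from 1 to 2 with means over cells (Bbc3), to 2 with the stricter cell filter (Bcl2l1) and to 2 with the 1.5-fold limit (Bcl2l1). The protective share was 27.8% in skin Vγ4 with the stricter filter, and in pLN it was 16.2% after thinning, 15.9% without cells with other cell types' markers and 16.4% without dividing cells. After thinning, the log2 ratio of dividing over other pooled cells turned to 0.021 for Bcl2l1, and that of Gzma over Cd163l1 thymus cells to -0.0069 for Bcl2. Apart from the lower depth or fewer cells that these settings make, the cause was not tested. In thymus over pLN, Pmaip1 gained a call without dividing cells, at a log2 ratio of 1.13, and without cells with other cell types' markers, at 1.15. In skin Vγ6 over thymus Pmaip1 gained one under TMM, at 1.04. Bak1 in skin Vγ6 over pLN was between -0.48 and -1.55 under the alternatives that ended its call. In skin Vγ6 over pLN, 34.4% of all calls were higher, against 47.1% under TMM and 48.1% under median-of-ratios scaling. In skin Vγ6 over thymus the shares were 35.8%, 44.4% and 51.2%, and in skin Vγ4 over skin Vγ6 57.3%, 67.5% and 60.6%. TMM moved the median of all genes in skin Vγ6 over pLN from -0.38 to -0.08, in thymus over pLN from -0.13 to 0.00 and in skin Vγ6 over thymus from -0.27 to -0.12. Depth limits Bid, Bbc3 and Bak1 in skin Vγ6, which rest on 3, 16 and 16 UMIs.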

Other observations

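The lower Bcl2l11 level of the pooled cells was seen in each kind of thymus-fitting cell. In pooled cells fitting thymus with a Cd163l1 UMI and no Gzma UMI (426 cells), Bcl2l11 was 32.3 CPM (20.5 to 48.5), and in the thymus library's cells of that gate it was 196 (173 to 222). In cells with Gzma and no Cd163l1 the values were 123 CPM (65.3 to 210), from 54 pooled cells, and 376 (350 to 405). In cells with neither they were 56.5 (36.6 to 83.4) and 330 (307 to 355). The order of the gates was the same in both sets for Cd163l1 and Gzma cells, and the interval of every pooled gate lay below that of its library counterpart. Mixing the 3 separate libraries in the fitted shares would give 166 CPM of Bcl2l11, and the pool held 37.8, 4.38-fold lower. For Bcl2l1 the mixture would give 43.7 CPM and the pool held 88.1, 2.02-fold higher. The other 8 members lay between 0.98 and 1.42 times the mixture.

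Fas and Cdkn1a ordered the libraries alike, except that the skin libraries swapped places. Fas was 371 CPM in skin Vγ6, 193 in skin Vγ4, 88.8 in the pool, 52.5 in thymus and 8.55 in pLN. Cdkn1a was 535 CPM in skin Vγ4, 334 in skin Vγ6, 330 in the pool, 93.8 in thymus and 10.7 in pLN. Both are known p53 targets, but not every gene tied to p53 had this order. Pmaip1 was also lowest in pLN, while no neighbours of Bbc3 were separated. Mdm2, another listed apoptosis gene, had a ratio of 0.986 (0.640 to 1.47) in skin Vγ6 over pLN. In thymus over pLN its ratio was 1.07 (0.874 to 1.31).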
